A study of Mus musculus with 13 samples.

Results

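The comparison described here asks how ventral tegmental area tissue that received a Setd7 virus differed from tissue that received a GFP virus once both groups of mice had been through social defeat. It takes in 6 of the 13 libraries of the series, chosen by their labels: 2 with Setd7 virus and defeat (Setd7 defeat) and 4 with GFP virus and defeat (GFP defeat). Every library came from the ventral tegmental area of a mouse labelled C57BlJ/6, with virus given at postnatal day 14, and bulk RNA-seq was run on adult tissue punches. Libraries 1 and 2 of GFP defeat came from females and libraries 3 and 4 from males, while Setd7 defeat 1 came from a female and Setd7 defeat 2 from a male. The 3 GFP control and 4 Setd7 control libraries received the same viruses without defeat and entered the fits as an estimate of spread. The labels name neither the viral promoter nor the cells it reached. The labels do not state whether punches were pooled. The data column of Setd7 defeat 1 carries a longer number than its sample title, in the form of 2 sample numbers run together, so whether this library holds 1 animal, a pool or another sample is not settled. Of 26264 genes in the table, 17755 reached 10 normalized counts in at least 2 of the 13 libraries and were tested.

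SETD7 is a lysine methyltransferase that adds a single methyl group to lysine 4 of histone H3, a mark associated with enhancers, and it also methylates transcription factors and other proteins. The ventral tegmental area holds dopamine neurons that project to the nucleus accumbens and prefrontal cortex, together with GABA and glutamate neurons, and it is one of the regions in which social defeat, repeated exposure to an aggressive mouse, has been studied most. A punch also takes in glia, blood vessels and sometimes the membranes at the ventral brain surface, and in such bulk tissue fewer cells of a type and less RNA per cell cannot be told apart.

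The 6 libraries held 30935631 to 48138470 gene reads. The levels of tissue markers differed among them. Setd7 defeat 1 stood apart upward: 332 of 14933 genes with a mean of at least 30 normalized counts were at least 2-fold above the median of the GFP defeat libraries in it, against 61 in Setd7 defeat 2 and 78 to 174 in each GFP defeat library set against the other 3. It did not stand apart downward, with 108 genes at least 2-fold below that median, against 76 in Setd7 defeat 2 and 112 to 219 in the GFP defeat libraries. The 2 Setd7 defeat libraries differed by 2-fold or more in many genes, with 394 higher in Setd7 defeat 1 and 148 higher in Setd7 defeat 2. GFP defeat 1 was low in dopamine neuron genes, with 2539 normalized counts of Th, the rate-limiting enzyme of dopamine synthesis, against 10298, 10764 and 17550 in the other GFP defeat libraries. GFP defeat 4 was high in Tcf7l2, a transcription factor of thalamic neurons, at 6575 against 981.7 to 1449 in the other 3. Because Setd7 defeat 1 is the only female and Setd7 defeat 2 the only male of their group, library and sex cannot be told apart within it.

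Setd7 RNA was far higher in both Setd7 defeat libraries. The normalized counts were 10888, 14060, 12946 and 12799 in GFP defeat 1 to 4, and 92288 and 123133 in Setd7 defeat 1 and 2. The groups did not overlap: the lower Setd7 defeat library held 6.56 times the count of the highest GFP defeat library, and the ratio of the group means was 8.5. On the scale of log2 of the normalized count plus 1, used for every log2 value here, the difference was 3.08 with a standard error of 0.45. Across all genes the adjusted p of limma was 0.236, that of edgeR 0.0844 and that of DESeq2 1.15e-05. An exact two-sided permutation test over the 15 ways of choosing 2 of the 6 libraries gave p = 0.133, the smallest it can give here. The limma value depended on Setd7 control 4, which held 28587 normalized counts against 81302 to 158681 in the other Setd7 control libraries: without that library the adjusted p of limma was 0.0001. Counts do not tell viral from endogenous transcripts, and a gene on the opposite strand overlaps Setd7 in GENCODE annotation, while the strand setting of the counting was not given in the sources used here.

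**Figure D1:**
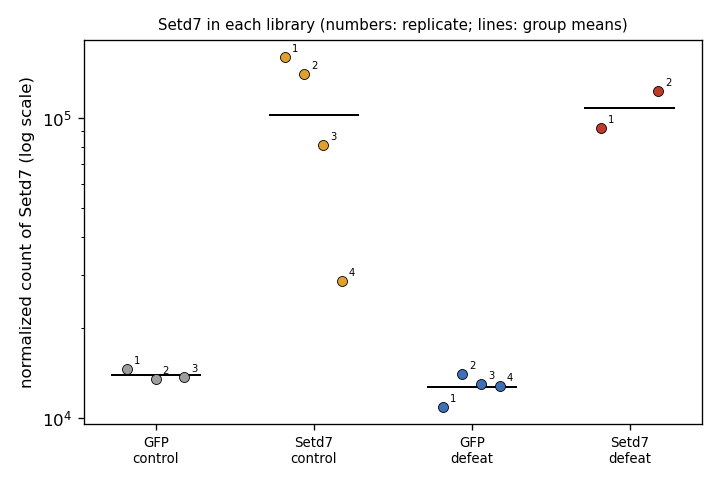
Normalized count of Setd7 in each of the 13 libraries on a log axis, by group, with replicate numbers beside the points and lines at the group means. The 2 Setd7 defeat libraries, at 92288 and 123133, lie above all 4 GFP defeat libraries, at 10888 to 14060.

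Beyond the virus itself, the tests found few genes that differed. With limma, 0 of 17755 genes passed an adjusted p of 0.05 (0.0%), while 862 genes (4.85%) had an unadjusted p under 0.05, 460 of them higher (2.59%) and 402 lower (2.26%). edgeR also called 0 genes, with 839 (4.73%) at an unadjusted p under 0.05. DESeq2 called 6 genes (0.0338%), all higher: Setd7, Cdh1, Prg4, Thbd, Tinagl1 and Slc47a1. Fold changes were centred, with a median of 0.00 and 50.8% of genes above 0. In 1259 genes (7.09%) both Setd7 defeat libraries lay above all 4 GFP defeat libraries, and in 1239 (6.98%) both lay below. These shares are the background for the counts of gene groups that follow.

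The 5 genes that DESeq2 called beside Setd7 were led by Setd7 defeat 1. Cdh1 encodes E-cadherin, the adhesion molecule of epithelial junctions, which is also found in the arachnoid membrane. Its normalized counts were 20.9, 13.5, 5.87 and 5.04 in GFP defeat, 580.7 in Setd7 defeat 1 and 28.1 in Setd7 defeat 2. Prg4, which encodes the lubricating proteoglycan lubricin, stood at 26.0 to 35.2 in GFP defeat, 449.3 in Setd7 defeat 1 and 46.9 in Setd7 defeat 2. Both Setd7 defeat libraries lay above GFP defeat, the second by little. Slc47a1, an exporter of organic cations, stood at 11.7 to 27.2 in GFP defeat against 272.8 and 42.2. Thbd, the thrombin receptor thrombomodulin of vessel lining, stood at 568.6, 504.2, 407.6 and 447.5 against 2200 and 648.4. Tinagl1, a matrix protein of vessel walls, stood at 229.0 to 297.3 against 611.8 and 361.1. The log2 differences from limma were 3.60 ± 0.88 for Cdh1, 2.42 ± 0.68 for Slc47a1, 1.32 ± 0.28 for Thbd and 0.83 ± 0.17 for Tinagl1, each ± its standard error, and their adjusted p from DESeq2 ran from 0.000263 for Cdh1 and Thbd to 0.02 for Slc47a1. With Setd7 defeat 1 left out, DESeq2 called 5 genes and none of these 5, the calls then being Setd7, Ndufa5, Ogg1, Pygo2 and Tlnrd1.

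What the calls rested on was visible when either Setd7 defeat library was set alone against GFP defeat. These fits assumed that a single library varies as the other groups do, and kept the sex term, estimated from all libraries left in. With Setd7 defeat 1 alone, limma called 23 genes (22 higher), edgeR 53 (51 higher) and DESeq2 142 (131 higher). With Setd7 defeat 2 alone, limma and edgeR each called 0 genes and DESeq2 called 5 (2 higher). The DESeq2 calls had 1 gene in common, Setd7, which is 0.704% of the first list and 20.0% of the second. Setd7 RNA was higher in Setd7 defeat 2, and the part of its level in these differences was not tested. Ndufa5, a subunit of respiratory complex I, was among the other genes of the second list. It stood at 223.2 to 267.2 in GFP defeat, 273.8 in Setd7 defeat 1 and 472.5 in Setd7 defeat 2. Ogg1, a DNA glycosylase that removes oxidized guanine, stood at 147.6 to 223.2 in GFP defeat, 218.6 in Setd7 defeat 1 and 79.7 in Setd7 defeat 2.

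**Figure D2:**
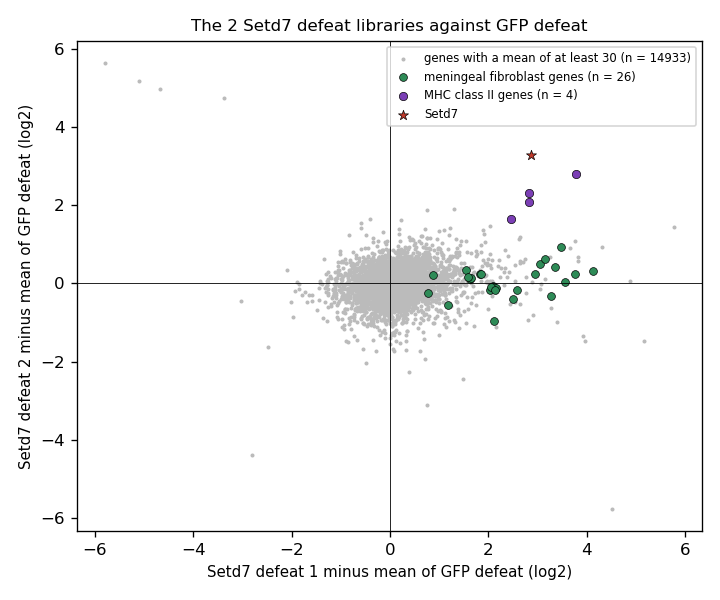
Each point is 1 of 14933 genes with a mean of at least 30 normalized counts, with the log2 difference from the mean of GFP defeat in Setd7 defeat 1 on the x axis and in Setd7 defeat 2 on the y axis. Of 26 meningeal fibroblast genes plotted, 24 exceed 1 on the x axis and 0 on the y axis, whereas the 4 major histocompatibility class II genes reach at least 1.64 on both; the 5 points far into the upper left and lower right corners are the sex-linked genes Ddx3y, Eif2s3y, Kdm5d, Uty and Xist.

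Genes of meningeal fibroblasts, the matrix-producing cells of the brain's coverings, had the largest median difference of the 33 gene lists. All 27 members of that list had fold changes above 0, 18 at an unadjusted p under 0.05, and their median was 1.04 against 0.00 over all genes tested. None passed an adjusted p with limma. In 6 members both Setd7 defeat libraries lay above all GFP defeat libraries. The median was 2.04 with Setd7 defeat 1 alone and 0.21 with Setd7 defeat 2 alone. The part of meningeal tissue in the matrix, transporter and vessel values that follow was not tested. The defining markers Dcn, Lum and Col1a1 were detected in all 6 libraries. Dcn, which encodes the collagen-binding proteoglycan decorin, stood at 536.4, 429.4, 372.3 and 495.9 in GFP defeat, at 1333 in Setd7 defeat 1 and at 571.0 in Setd7 defeat 2. Col1a1, a chain of fibrillar collagen, stood at 287.6, 168.4, 130.4 and 228.8 against 695.0 and 231.0. Setd7 defeat 1 lay far above the GFP defeat libraries for both genes, and Setd7 defeat 2 lay just above them for Dcn and among them for Col1a1.

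Within the list the difference varied widely, from 0.27 for Lama1, a laminin chain, to 3.09 for the organic cation transporter Slc22a2, which was near 0 in GFP defeat (0.0 to 4.16 normalized counts). Ogn, a small leucine-rich proteoglycan, stood at 132.2, 101.9, 74.0 and 163.3 in GFP defeat against 1166 and 151.3, so that Setd7 defeat 2 lay inside the GFP defeat range. Fn1, which encodes fibronectin, stood at 2789, 2715, 2598 and 2589 against 8241 and 2876, a log2 difference of 0.87 ± 0.25. Aldh1a2, the retinaldehyde dehydrogenase that makes retinoic acid in the meninges, stood at 45.8 to 123.3 against 678.0 and 116.1. The forkhead factors of meningeal development followed: Foxc1 stood at 306.4 to 485.6 against 1117 and 395.1, and Foxc2 at 16.4 to 50.8 against 328.0 and 55.1. Ptgds, the prostaglandin D synthase abundant in the leptomeninges, stood at 7256 to 9917 against 37314 and 7536. In most of these genes Setd7 defeat 2 was within or close to the GFP defeat range.

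Matrix genes were also highest in Setd7 defeat 1. Of 35 collagens tested, 27 were above 0, 5 at an unadjusted p under 0.05 and 0 below at that threshold, with a median of 0.32 that was 0.71 with Setd7 defeat 1 alone and -0.05 with Setd7 defeat 2 alone. The list shares members such as Col1a1 with the meningeal list. Col6a2, a chain of the beaded-filament collagen, stood at 97.5 to 137.1 in GFP defeat against 513.5 and 130.1. Of 34 basement membrane and matrix glycoproteins, 30 were above 0 and 8 passed an unadjusted p under 0.05, with a median of 0.29 that was 0.71 with Setd7 defeat 1 alone and -0.10 with Setd7 defeat 2 alone. Lamc1, the laminin gamma chain of most basement membranes, was higher in both Setd7 defeat libraries: it stood at 2372, 2315, 2240 and 2566 in GFP defeat against 3044 and 2874 (log2 difference 0.32 ± 0.09). Emilin1, an elastic fibre protein, stood at 24.7 to 68.5 against 215.6 and 76.2.

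Transporters of the brain's barriers were the next group. Of 22 solute carriers and ATP-driven pumps tested, 19 were above 0, 10 at an unadjusted p under 0.05, and the median was 0.27, or 0.26 with Setd7 defeat 1 alone and 0.10 with Setd7 defeat 2 alone. Several members are also in the meningeal list. Slc13a4, a sulfate transporter, stood at 59.3 to 136.0 in GFP defeat against 1512 and 105.5. Slc22a6, an organic anion transporter, stood at 57.6 to 88.9 against 928.7 and 80.9, and its relative Slc22a8 at 382.6 to 437.1 against 1217 and 472.5. Transporters of the capillary wall itself differed little. Slc2a1, the glucose transporter, stood at 4300 to 5299 against 5886 and 4998, and Abcb1a, the drug efflux pump P-glycoprotein, at 1470 to 1744 against 1998 and 1855 (log2 difference 0.23 ± 0.08).

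Vessel genes were described by an endothelial and a mural list. Of 20 endothelial genes, 19 were above 0, 3 at an unadjusted p under 0.05, with a median of 0.17 that was 0.25 with Setd7 defeat 1 alone and 0.13 with Setd7 defeat 2 alone. Flt1, a receptor for vascular endothelial growth factor, stood at 4773, 5153, 5132 and 5298 in GFP defeat against 5503 and 5847. Adgrl4, an adhesion receptor of endothelial cells, stood at 1103, 1209, 1072 and 1110 against 1562 and 1361. Of 15 pericyte and smooth muscle genes, 13 were above 0, 3 at an unadjusted p under 0.05, with a median of 0.51 that was 0.60 with Setd7 defeat 1 alone and 0.05 with Setd7 defeat 2 alone. The pericyte regulator Rgs5 stood at 3627, 3496, 4267 and 3891 against 5158 and 5316, above GFP defeat in both libraries (0.46 ± 0.13). The smooth muscle actin Acta2, by contrast, stood at 173.8 to 492.8 against 1333 and 259.1, high in Setd7 defeat 1 alone. Abcc9, a subunit of a potassium channel of pericytes, stood at 555.1 to 682.3 against 635.9 and 685.9.

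Signalling genes linked to these cells were measured as well. Of 36 genes of transforming growth factor beta and bone morphogenetic protein signalling, 30 were above 0 and 6 passed an unadjusted p under 0.05, with a median of 0.14 that was 0.31 with Setd7 defeat 1 alone and 0.03 with Setd7 defeat 2 alone. Bmp5, a secreted ligand, stood at 65.7, 70.7, 36.4 and 66.5 in GFP defeat against 148.4 and 99.7, above it in both libraries (1.06 ± 0.30). Its relative Bmp7 stood at 288.9 to 499.8 against 1094 and 381.1. The receptor Tgfbr2 stood at 899.3 to 1015 against 1407 and 1092, and the target gene Id1 at 269.1 to 294.4 against 544.6 and 306.0. Of 17 retinoic acid pathway genes 12 were above 0, with a median of 0.23 that was 0.37 with Setd7 defeat 1 alone and 0.10 with Setd7 defeat 2 alone. Crabp2, which carries retinoic acid to its nuclear receptor, stood at 4.70 to 18.7 against 120.4 and 19.9. The receptor gene Rarg stood at 329.6 to 352.6 against 439.3 and 365.8.

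**Figure D3:**
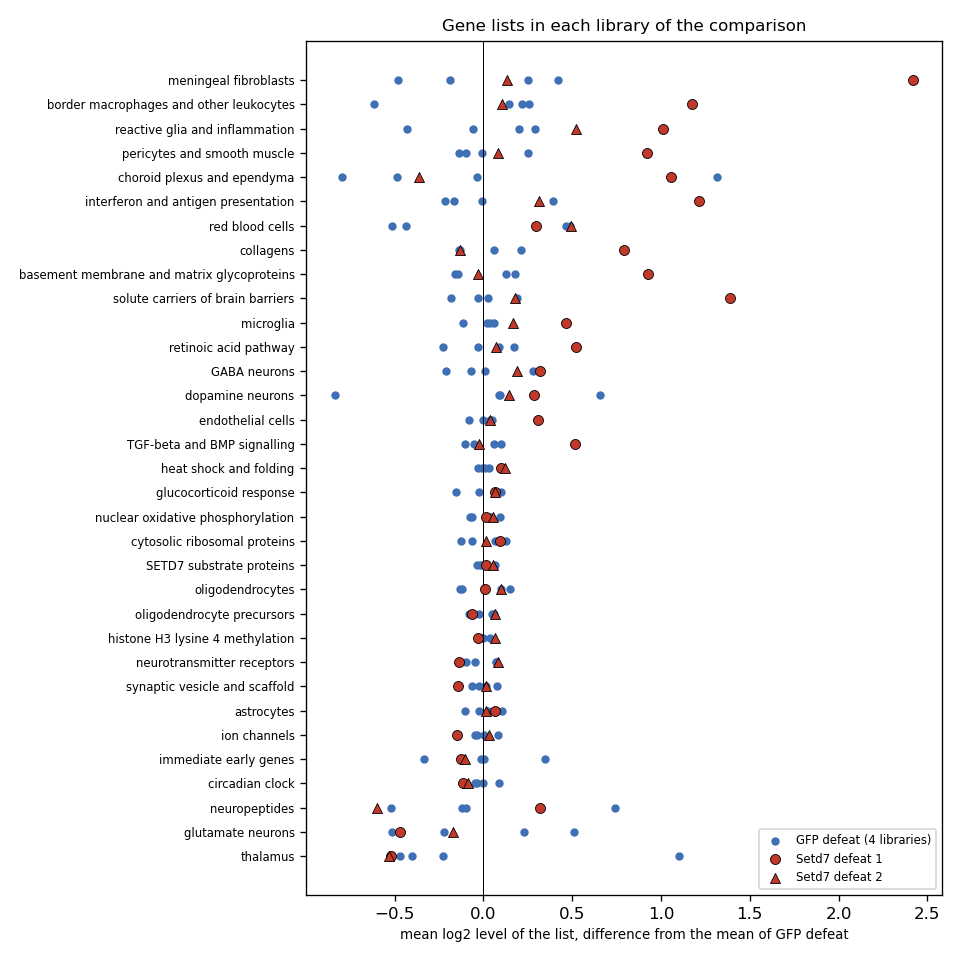
For each of the 33 gene lists, the mean log2 level of its members in each of the 6 libraries is plotted as the difference from the mean of GFP defeat, with circles for GFP defeat and Setd7 defeat 1 and triangles for Setd7 defeat 2. Setd7 defeat 1 lies far to the right for meningeal fibroblasts, whose list means are 7.08 to 7.98 in GFP defeat, 9.98 in Setd7 defeat 1 and 7.69 in Setd7 defeat 2, while the synaptic, ion channel and histone methylation lists lie near 0.

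A different distribution was seen for antigen presentation by major histocompatibility complex class II, in which a pair of chains displays peptides from internalized proteins and the invariant chain, encoded by Cd74, guards the binding groove during assembly. Class II genes were above GFP defeat in both Setd7 defeat libraries. In mice, their transcription depends on a short promoter module that includes a Y box, a CCAAT-containing element bound by NF-Y. The RefSeq promoters (build GRCm38.p6) are shown for H2-Aa and H2-Eb1, to place this element beside the levels. H2-Ab1 was not matched in the promoter table, and Cd74 was not looked up. Each promoter runs over the 150 bases before the start, with CTGATTGG, the letters searched for on both strands, in capitals.
H2-Aa, chr17:34287824-34287973, minus strand: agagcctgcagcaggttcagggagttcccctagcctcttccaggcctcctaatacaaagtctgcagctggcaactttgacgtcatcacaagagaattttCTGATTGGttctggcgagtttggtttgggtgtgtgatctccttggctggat
H2-Eb1, chr17:34305717-34305866, plus strand: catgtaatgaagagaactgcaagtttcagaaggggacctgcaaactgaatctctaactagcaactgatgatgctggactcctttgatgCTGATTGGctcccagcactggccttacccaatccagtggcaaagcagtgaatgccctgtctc
The motif lies 51 to 44 bases before the start in H2-Aa and 62 to 55 bases before it in H2-Eb1. It was found in 1039 of 32851 promoter windows of that length (3.16%). A match of letters is a description of the window and not a measured site.

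In each of the 4 class II genes Setd7 defeat 1 was highest of the 6 libraries and Setd7 defeat 2 next. Cd74 stood at 164.4, 130.0, 90.4 and 129.0 normalized counts in GFP defeat against 901.7 in Setd7 defeat 1 and 622.6 in Setd7 defeat 2. H2-Aa, the alpha chain of the A molecule, stood at 44.1, 33.3, 9.40 and 11.1 against 287.8 and 144.2. H2-Ab1, its beta chain, stood at 67.2, 19.8, 31.7 and 18.1 against 215.6 and 129.0. H2-Eb1, the beta chain of the E molecule, stood at 72.5, 42.6, 42.3 and 51.4 against 283.8 and 160.6. The groups did not overlap for any of the 4 genes. The log2 differences were 2.57 ± 1.41, 3.29 ± 1.63, 2.45 ± 1.44 and 2.05 ± 1.29 in that order, and each had an adjusted p of 0.99 with limma. Other genes of the pathway were chosen after their values were seen: the peptide loading factor gene H2-DMb1 stood at 29.1 to 37.6 against 104.3 and 38.7, and Ciita, the class II master regulator, at 38.3 to 99.4 against 54.2 and 97.3.

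A library outside the comparison was far higher in these genes and widened their errors in the fit. Setd7 control 4, a male without defeat, held 8725 normalized counts of Cd74 and 2351 of H2-Aa, whereas Setd7 control 1 to 3 held 71.0 to 114.3 and 10.8 to 42.3. Among the GFP control libraries Cd74 stood at 50.0 to 207.9. Without Setd7 control 4 the standard error for Cd74 was 0.43 and its adjusted p with limma was 0.333. With only the 6 defeat libraries in the fit it was 0.20 and the adjusted p with limma was 0.0066, so that Cd74 and Setd7 were the 2 genes called.

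**Figure D4:**
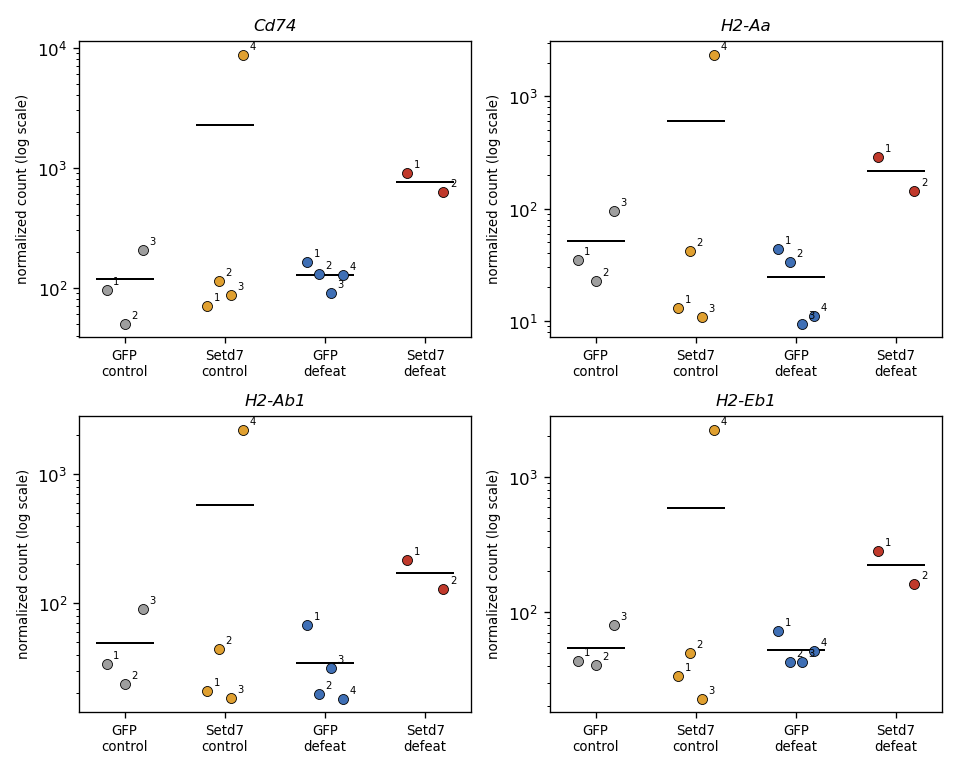
Normalized counts of Cd74, H2-Aa, H2-Ab1 and H2-Eb1 in all 13 libraries on log axes, with replicate numbers beside the points and lines at the group means. Both Setd7 defeat libraries lie above the 4 GFP defeat libraries in each panel, and Setd7 control 4 lies highest, with 8725 for Cd74.

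Markers of immune cells were given by the same libraries as follows, and their part in the class II levels was not tested. Of 12 genes of border macrophages and other leukocytes, 11 were above 0 and none passed an unadjusted p under 0.05, with a median of 0.61 that was 1.02 with Setd7 defeat 1 alone and 0.04 with Setd7 defeat 2 alone. The mean log2 level of that list was 3.74 to 4.61 in GFP defeat, 5.53 in Setd7 defeat 1 and 4.46 in Setd7 defeat 2. Of its defining markers, none was at 0. The pan-leukocyte gene Ptprc stood at 163.6, 128.9, 177.4 and 108.8 against 223.7 and 186.4, and the macrophage mannose receptor Mrc1 at 133.1 to 192.5 against 288.8 and 133.7. Itgax, the integrin CD11c of dendritic cells and activated microglia, stood at 19.4, 6.24, 18.8 and 7.05 against 43.1 and 41.0. Ccr2, the chemokine receptor of monocytes, stood at 5.20 to 18.7 against 23.1 and 44.6.

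Class I genes were above GFP defeat by smaller folds. B2m, the light chain of class I molecules, stood at 2002, 2498, 1970 and 2346 in GFP defeat against 4331 and 4059. The class I heavy chain H2-K1 stood at 567.4 to 598.5 against 1397 and 949.7, and H2-D1 at 666.2 to 699.7 against 1555 and 943.9. These 3 genes did not overlap between the groups. The interferon-stimulated gene Ifit1, an antiviral RNA-binding protein, stood at 160.6, 163.2, 529.7 and 123.0 against 378.1 and 165.3, with the highest value in GFP defeat 3. Over the 28 interferon and antigen presentation genes, 27 were above 0, 0 passed an unadjusted p under 0.05 and 8 lay above without overlap. Their median was 0.43, 1.34 with Setd7 defeat 1 alone and -0.18 with Setd7 defeat 2 alone. The sex term of these fits also rests on Setd7 control 4, a male with a list mean of 10.24. The list mean itself was 8.49 in Setd7 defeat 1 and 7.59 in Setd7 defeat 2, against 7.06 to 7.67 in GFP defeat. Among males only, the median difference was -0.01.

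Microglia and reactive glia were described by 2 lists. All 20 microglia genes were above 0, 1 of them at an unadjusted p under 0.05, and the median was 0.24, or 0.48 with Setd7 defeat 1 alone and 0.14 with Setd7 defeat 2 alone. The gene below that p, Aif1, which encodes the cytoskeletal protein Iba1, stood at 20.2, 29.1, 34.1 and 12.1 in GFP defeat against 38.1 and 84.4. The complement gene C1qb stood at 1007 to 1212 against 1898 and 1346, and the protease gene Ctss at 1437 to 1779 against 2483 and 1964. Of 18 genes of reactive glia and inflammation, 16 were above 0, 1 at an unadjusted p under 0.05 and 7 without overlap, with a median of 0.58 that was 1.04 with Setd7 defeat 1 alone and 0.36 with Setd7 defeat 2 alone. Gpnmb, a glycoprotein of activated microglia, stood at 15.3 to 44.7 against 70.2 and 107.9 (1.60 ± 0.58). The complement component C3 stood at 27.0 to 57.2 against 166.5 and 105.5. Outside the comparison, GFP control 1 to 3 held 108.2, 42.8 and 122.8 of Gpnmb, so this gene was as high in some libraries without Setd7 virus. Those libraries held 53.5, 32.8 and 42.0 of Aif1 and 66.5, 37.8 and 86.2 of C3, and Setd7 control 4 held 935.9 of C3. The astrocyte filament gene Gfap did not separate the groups, at 3902, 3833, 2734 and 7747 against 7821 and 5095. Of 20 astrocyte genes 8 were above 0, with a median of -0.03.

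Beside these gene lists, genes were named over the whole table. They were found by taking, in each direction, the 12 genes with the smallest unadjusted p whose groups did not overlap, so the separation of the groups is how they were chosen and is no result. All 24 had an adjusted p of 0.99 with limma. The higher genes include Cdh1, Thbd, Tinagl1 and Adgrl4, described above, and others whose values were closer in both Setd7 defeat libraries. Among the latter, Sft2d3, which encodes a membrane protein of vesicle transport, stood at 269.7, 231.8, 251.4 and 225.8 in GFP defeat against 385.1 and 381.1 (0.65 ± 0.14). Lsm3, a component of the spliceosome's small nuclear ribonucleoproteins, stood at 318.5 to 350.4 against 506.5 and 444.4. Isyna1, the synthase that makes inositol phosphate from glucose phosphate, stood at 1047 to 1145 against 1736 and 1330. Ubxn1, a ubiquitin-binding cofactor of the segregase VCP, stood at 1111 to 1232 against 1450 and 1398.

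A subset of the higher genes encodes parts of the respiratory chain: Atp5h, a subunit of ATP synthase, Uqcrh, a subunit of complex III, and Ndufb4, a subunit of complex I. Atp5h stood at 526.0, 830.7, 718.9 and 652.1 in GFP defeat against 1003 and 1045, and Ndufb4 at 202.5 to 281.7 against 337.0 and 370.5. Both Setd7 defeat libraries were close to each other for these genes. Processed copies of such short genes are common in the mouse genome, so counting could have split their reads and the values are uncertain. The list of 36 nuclear genes of oxidative phosphorylation does not include Atp5h, Uqcrh, Ndufb4 or Ndufa5, and so covers only a part of such genes. In it 22 were above 0 and 2 at an unadjusted p under 0.05, with a median of 0.03. The 2 members below that p were Ndufv2, at 3067 to 3549 against 3822 and 3764, and Ndufa1, at 410.2 to 531.3 against 537.6 and 707.0.

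Among the lower genes, Htr7, which encodes a serotonin receptor coupled to cyclic AMP, stood at 1160, 1063, 1142 and 1107 in GFP defeat against 722.1 and 831.3 (-0.53 ± 0.14). Elp2, a subunit of the Elongator complex that modifies transfer RNAs, stood at 1689, 1649, 1724 and 1699 against 1392 and 1414 (-0.27 ± 0.07). Spread within GFP defeat was small for both genes, which the choice by smallest p and no overlap favours. Rhbdl3, a member of the rhomboid family, stood at 1322 to 1440 against 1004 and 1109. Nfrkb, a subunit of the INO80 chromatin remodeller, stood at 981.4 to 1070 against 772.3 and 886.4. Cox11, a copper chaperone for cytochrome oxidase, stood at 679.9 to 740.0 against 594.7 and 540.5. The remaining lower genes were Lemd1, Ccser1, Cdadc1, Mfsd13a, Tchh, Samd4b and Rnf169, and log2 differences over the 12 ran from -0.22 for Samd4b to -0.98 for Lemd1. Apart from Htr7, Rhbdl3 and Nfrkb, each of these lower genes overlaps a gene on the opposite strand in GENCODE annotation. The same holds for other genes described here, such as Uqcrh, Prg4, Ogn, Fn1, Ogg1, Aldh1a2, Bmp5, Abcb1a, Ciita, Shank1, Cry2 and Ndufv2. Counts of all these genes may include reads of a neighbour.

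**Figure D5:**
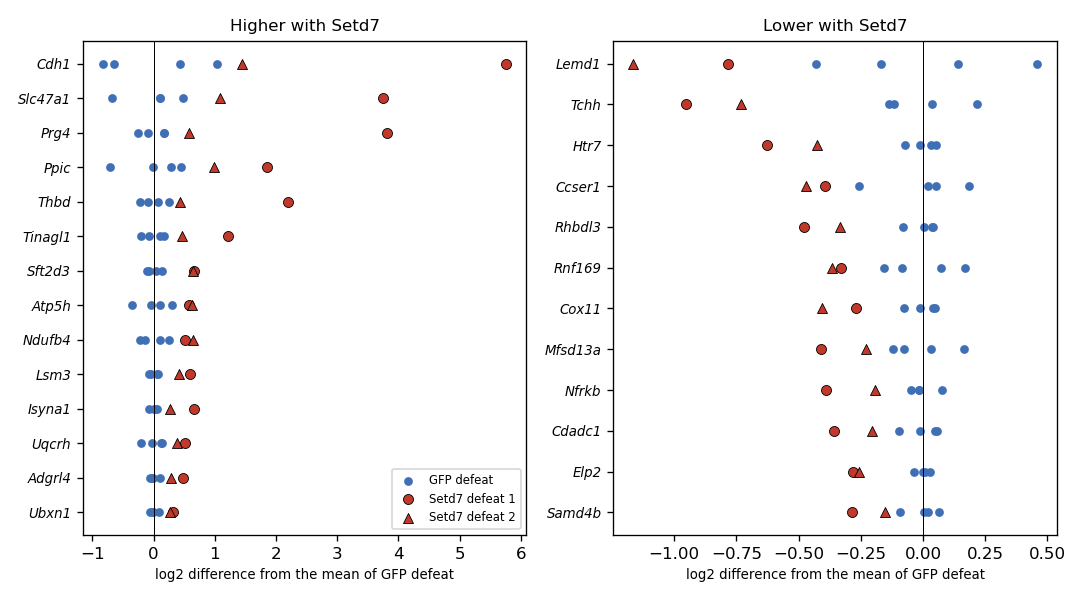
Log2 difference from the mean of GFP defeat in each of the 6 libraries, for the genes named by rule as higher (left, with the DESeq2 calls) and lower (right), with circles for GFP defeat and for Setd7 defeat 1 and triangles for Setd7 defeat 2. Cdh1, Slc47a1 and Prg4 are far apart in the 2 Setd7 defeat libraries, while Sft2d3 and Elp2 have nearly equal values in both.

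Dopamine neuron genes did not separate the groups. Of 28 tested, 24 were above 0, 0 at an unadjusted p under 0.05 and 1 without overlap, with a median of 0.19 that was 0.36 with Setd7 defeat 1 alone and 0.12 with Setd7 defeat 2 alone. Th stood at 11999 and 10751 in Setd7 defeat, inside the GFP defeat range of 2539 to 17550. Slc6a3, the dopamine transporter, stood at 5051, 27296, 23905 and 36158 in GFP defeat against 27777 and 21894, and without GFP defeat 1 its log2 difference was -0.27 in place of 0.41. Of 14 GABA neuron genes 13 were above 0, with a median of 0.22 and 0 at an unadjusted p under 0.05. Gad1, the enzyme that makes GABA, stood at 7160 to 11529 against 11319 and 10072. Of 10 glutamate neuron genes 2 were above 0, with a median of -0.19 that was -0.44 with Setd7 defeat 1 alone and 0.07 with Setd7 defeat 2 alone, and the vesicular transporter Slc17a6 stood at 9447 to 15781 against 7578 and 13385. Thalamic genes were 2 above 0 of 13, with a median of -0.19 and list means of 9.76 and 9.75 in Setd7 defeat against 9.81 to 11.38 in GFP defeat. For Th, Slc6a3, Gad1 and Slc17a6 at least 1 Setd7 defeat library lay inside the GFP defeat range. Of 15 choroid plexus and ependyma genes 11 were above 0, with a median of 0.45 that was 0.98 with Setd7 defeat 1 alone and 0.03 with Setd7 defeat 2 alone. The transport protein gene Ttr stood at 56.0, 33.3, 10.6 and 556.3 against 463.4 and 71.5. Of 9 red blood cell genes 4 passed the filter on low values and 3 of these were above 0, with a median of 0.37 that was -0.15 with Setd7 defeat 1 alone and 0.60 with Setd7 defeat 2 alone. The untested members include the haemoglobin genes Hba-a1 and Hbb-bs.

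Genes of neuronal signalling fell into 4 lists. Of 28 neurotransmitter receptors 11 were above 0, with a median of -0.02 and 0 at an unadjusted p under 0.05. Of 30 ion channels 10 were above 0, with a median of -0.06, and 4 lay below GFP defeat without overlap, among them Kcnd2, a subunit of the A-type potassium channel, at 4332 to 4754 against 3746 and 4063. Of 28 synaptic vesicle and scaffold genes 10 were above 0 and 1 passed an unadjusted p under 0.05. That gene, Shank1, a scaffold of the postsynaptic density, stood at 26472, 26760, 25564 and 28543 against 19508 and 24187 (-0.30 ± 0.10). The scaffold gene Dlg4, which encodes PSD-95, stood at 13064 to 14827 against 12633 and 12667. Of 20 neuropeptide genes 7 were above 0, with a median of -0.12 and 0 without overlap in either direction. The neuropeptide median was 0.16 with Setd7 defeat 1 alone and -0.44 with Setd7 defeat 2 alone. In the other 3 lists the medians with either library alone lay between -0.13 and 0.07, below 0 with Setd7 defeat 1 and above 0 with Setd7 defeat 2.

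Apart from Setd7 itself, which is in neither list, RNA levels of histone methylation genes and of SETD7 substrate proteins differed little between the groups. Of 26 genes of histone H3 lysine 4 methylation 12 were above 0, with a median of -0.01 and 1 at an unadjusted p under 0.05. That gene was Kdm5b, a demethylase of this lysine, which stood at 2876, 2596, 2680 and 3095 in GFP defeat against 2478 and 2524. Kmt2a, a methyltransferase of the same residue, stood at 14240 to 14845 against 12385 and 15753. Of 25 genes whose proteins SETD7 is known to methylate 17 were above 0, with a median of 0.02 and 0 at an unadjusted p under 0.05. These are RNA levels and hold no measure of methylation.

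Stress, activity and housekeeping lists gave medians between -0.10 and 0.08, and between -0.18 and 0.11 with either Setd7 defeat library alone. Of 20 immediate early genes 7 were above 0, with a median of -0.08, and Fos stood at 355.9 to 448.3 in GFP defeat against 411.2 and 500.7. Of 20 glucocorticoid response genes 13 were above 0 and 1 passed an unadjusted p under 0.05. That gene, Pdk4, a kinase that restrains pyruvate oxidation, stood at 486.8 to 587.3 against 668.0 and 702.3, whereas the receptor cochaperone Fkbp5 stood at 682.0 to 935.3 against 996.9 and 833.7. Of 43 cytosolic ribosomal protein genes 26 were above 0 and 17 below, with a median of 0.02. At an unadjusted p under 0.05, 7 were higher and 0 lower, beside 2.59% higher and 2.26% lower over all genes tested. Rps6 stood at 1260 to 1608 against 1771 and 1877. Rpl22, a lower member that is not among the 7, stood at 1176 to 1285 against 1054 and 1018. Of 24 heat shock and folding genes 18 were above 0 and 2 passed an unadjusted p under 0.05, including the chaperone Hspa8 at 24345, 30483, 26579 and 28891 against 32860 and 36243. Of 20 circadian clock genes 4 were above 0, with a median of -0.10, and the repressor Cry2 stood at 3410 to 4003 against 3338 and 3182. Oligodendrocyte genes were 11 above 0 of 20, with a median of 0.01, and their precursors 7 of 14, with a median of -0.01.

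Whether the effect of Setd7 after defeat differed from its effect without defeat was tested as an interaction. With limma 0 of 17755 genes passed an adjusted p of 0.05 (0.0%), with 880 (4.96%) at an unadjusted p under 0.05, and edgeR called 0. DESeq2 called 1 gene (0.00563%), Cdh1, whose interaction was 4.44 ± 1.18 with limma. The 2 effects share no library but share the estimate of spread and the sex term, and over the genes tested they had a Pearson correlation of 0.128 and a Spearman correlation of 0.103, a description across genes that are not independent replicates. Without defeat, 766 genes were higher (4.31%) and 657 lower (3.7%) at an unadjusted p under 0.05. Of the 12 higher genes named by rule, 7 had an effect above 0 without defeat, and of the 12 lower genes 7 had one below 0, with 1 in each set at an unadjusted p under 0.05 (Uqcrh and Nfrkb). The rest of both sets went the other way without defeat, and Mfsd13a is given as 1 example. It stood at 616.5 to 752.9 in GFP defeat against 505.5 and 572.2, with an effect without defeat of 0.28. Its interaction was -0.60 ± 0.12, which did not pass an adjusted p of 0.05 with limma. Meningeal genes had a median effect of -0.28 without defeat, with 7 of 27 above 0, while interferon and antigen presentation genes had 0.70. The latter was led by Setd7 control 4, with a list mean of 10.24 against 6.96 to 7.22 in the other Setd7 control libraries and at most 7.44 in GFP control. Dopamine neuron genes had a median effect of 0.87 without defeat, with 27 of 28 above 0 and an interaction median of -0.72. Their list means were 11.18 to 11.77 in Setd7 control and 10.01 to 11.27 in GFP control.

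Within each sex the comparison is of 1 library with 2, which gives values without a test. Female and male differences had the same sign in 47.2% of genes, and their Pearson correlation was -0.064 over the 17755 genes. The meningeal median was 2.02 in females and 0.20 in males. The dopamine neuron median was 0.70 in females, where GFP defeat 1 enters, and -0.25 in males. All 24 genes named by rule kept their direction in both sexes, as the choice of genes without overlap fixes.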

How the data were processed

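RNeasy Micro kits were used for total RNA and the TruSeq RiboZero kit for libraries, per the labels' protocols. Reads were processed with Bowtie2, featureCounts and DESeq2 on GRCm39, per the submitters' processing notes, with versions and strand setting not given in the sources used here. The authors deposited 1 table of signal, gene counts divided by a size factor per sample. Its values were whole multiples of 1 step per library: 100.0% of 341432 lay within 0.01 of a whole read, and the recovered reads gave the depth (26548713 to 50842070 reads over 13 libraries) and the count tests. The titles give each sample a number of its own without saying what it counts, so p-values measure the spread between libraries, which may be technical.

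The main fit took log2 of the deposited normalized count plus 1 into limma 3.58.1 (R 4.3.3, trended variance), over 13 libraries, with 4 group means and sex, two-sided, with Benjamini-Hochberg adjustment over 17755 genes and a threshold of 0.05. Prior degrees of freedom were 4.64. Count tests used edgeR 4.0.16 (quasi-likelihood) and DESeq2 1.42.0 with the same design. Only the limma fit was tested on simulated data. Genes were named by rule: Setd7, the 12 per direction with the smallest unadjusted p, no overlap and a mean of at least 30 normalized counts, without predicted names, Xist, Tsix and Y-linked genes, then calls of the count tests, up to 4 members of each list by p, and tissue checks; other genes were named after their values were seen. The members, lists and tests were chosen with earlier results of these data known. Lists are given as counts and medians, without a set test. Promoters are from RefSeq (19526 genes matched by symbol) and overlaps from GENCODE M21, of the earlier build, by name. Alternatives were TMM scaling, other filters and pseudocounts, robust fits, no sex term, the 6 libraries alone, each sex, and leaving out libraries. Results for 3 list members were left out of the text.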

Additional observations from a re-analysis of the deposited data

Results flagged for a closer look

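In 127 values of the GFP defeat group, the highest or lowest of the 4 libraries was compared with the others on the log2 scale. The measure was Dixon's ratio of that library's gap to the range, against the 95% critical value of the ratio. This critical value was exceeded in 4 values, and chance flags about 1 in 20 groups. GFP defeat 3 was lowest for Col6a2, with a ratio of 0.928, at 97.5 normalized counts against 133.7 to 137.1. The same library was lowest for Bmp5, with a ratio of 0.89, at 36.4 against 65.7 to 70.7. GFP defeat 4 was highest in the mean log2 level of thalamic genes, with a ratio of 0.847, at 11.38 against 9.81 to 10.05. GFP defeat 2 was lowest in the mean log2 level of border macrophage and other leukocyte genes, with a ratio of 0.869, at 3.74 against 4.50 to 4.61. The group of 2 Setd7 defeat libraries is too small for such a comparison.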

How the results depend on the processing

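The count of genes at an adjusted p under 0.05 was 0 with limma and stayed 0 with TMM scaling, a stricter filter, other pseudocounts, a robust fit and no sex term; it was 1 without a filter (Olfr706), 2 with only the 6 libraries and 6 with DESeq2, and 0 to 23 when 1 library was left out, with 23 without Setd7 defeat 2 and 1 (Setd7) without Setd7 control 4. Over the 6 libraries left out in turn, a check added after the data were seen, edgeR called 0 to 53 genes and DESeq2 3 to 142, with 3 without GFP defeat 1, 18 without GFP defeat 4 and 142 without Setd7 defeat 2. Genes at an unadjusted p under 0.05 ran from 343 to 660 higher and from 230 (without GFP defeat 1) to 776 (without Setd7 defeat 1) lower. The Setd7 difference was 3.08 with only the 6 libraries and 3.11 with DESeq2, with adjusted p of 6.56e-05 and 1.15e-05, and 2.56 to 3.59 with 1 library left out. The interaction count was 1 with DESeq2 and 0 to 3 with 1 library left out (Fn1, Slc22a8 and Thbd without Setd7 defeat 2). A Setd7 defeat group of 1 library was assumed to vary like the other groups.

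Of 2699 named gene values under alternatives, 23 reversed and 17 came to pass the threshold, and of 858 list medians 60 moved by more than the spread. Reversed in males (1 against 2 libraries) were Adcyap1 at 0.29, Cacna1i at 0.00, Drd1 at 0.35, Kcnj13 at -0.46, Slc6a3 at -0.43, Th at -0.35 and Yap1 at -0.15, and in females Neu4 at 0.06 and Ppargc1a at -0.01. Without GFP defeat 1 and 4 together, Adcyap1 was 0.17, Cplx1 0.00, Gria4 -0.05 and Slc6a3 -0.05. With 1 library left out, the ranges that reached or crossed 0 were -0.71 to 0.12 for Adcyap1, -1.21 to 0.15 for Drd1, -0.67 to 2 for Kcnj13, -0.05 to 0.46 for Yap1, 0.00 to 1.43 for Neurod6, -0.11 to 0.58 for Bcas1 and -0.02 to 0.32 for Ppargc1a, each end from leaving out 1 Setd7 defeat library, and -0.27 to 0.75 for Slc6a3 and -0.17 to 0.80 for Th, lowest without GFP defeat 1. The cause was not tested. No paired analysis was made, because the titles give each sample a number of its own and name no pairs. The group of interest has 2 libraries, of which 1 stands apart, and depth limits the low-count genes, such as Slc22a2 at 0.0 to 4.16 normalized counts in GFP defeat.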
